A study of Homo sapiens with 17 samples.

Results

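The genes described here are 9 protein-coding genes of chromosome band 11q13, FADD, CCND1, CTTN, ANO1, PPFIA1, ORAOV1, SHANK2, FGF19 and FGF3, which belong to a segment often gained in esophageal squamous cancer. They were taken by symbol from the 57820 genes that each expression table lists, and each symbol matched 1 row. The set was chosen by the level of FADD, which was much lower after ARV-771 than with DMSO, so the values of the ARV-771 comparison are given for these genes as a description and without a test. Copy number was not measured in these libraries. RNA sequencing of poly-A RNA covered 17 libraries from 2 squamous cancer lines, KYSE140 from esophagus and SKMES1 from lung, in 8 groups that follow perturbations of the transcription factor gene SOX2 and of e1, an enhancer near it.

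In KYSE140 cells that stably carried an inactive Cas9 joined to repressors (CRISPR interference, CRISPRi), 2 libraries had the negative-control guides sg-NC#1 and sg-NC#2 and 2 had the enhancer guides sg-e1#1 and sg-e1#2. In KYSE140 cells with active Cas9, 2 libraries had guides to the control sites AAVS1 and Chr2.2 and 3 had the guides sg-SOX2#2, sg-SOX2#3 and sg-SOX2#4. Those were pools of infected cells, not clones, so cells with an intact SOX2 could remain. Further KYSE140 cultures A and B received DMSO or 0.5 µM ARV-771, a degrader of BET bromodomain proteins, for 6 h. In SKMES1 cells with CRISPR activation (CRISPRa, an inactive Cas9 carrying activators), 2 libraries had sg-NC#1 and sg-NC#2 and 2 had sg-e1#1 and sg-e1#3. All CRISPR groups, controls included, thus carried a Cas9 protein and drug selection, and the DMSO and ARV-771 cultures were not stated to carry any. Replicates were different guides or cultures, so the p-values below measure the spread between such libraries.

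Band 11q13 is one of the segments that squamous tumors of the esophagus and of the head and neck gain most often, and CCND1 is held to be its main oncogene. CCND1 encodes cyclin D1, which activates CDK4 and CDK6 to phosphorylate the retinoblastoma protein and let cells enter S phase. FADD is the adapter that links death receptors such as FAS and the TRAIL receptors to caspase 8. CTTN encodes cortactin, which stabilizes branched actin at invadopodia, ANO1 a calcium-activated chloride channel, PPFIA1 the scaffold liprin-alpha-1, SHANK2 a postsynaptic scaffold, ORAOV1 (named LTO1 in current annotation) a factor for the maturation of an iron-sulfur ribosome-recycling protein, and FGF3 and FGF19 secreted fibroblast growth factors.

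On GRCh37, the equivalent of the hg19 build of the tables, the genes run from CCND1 (chr11:69455924-69469242, plus strand) through ORAOV1 (69467844-69490184, minus), FGF19 (69513006-69518790, minus), FGF3 (69624736-69634184, minus), ANO1 (69832013-70035636, plus), FADD (70049402-70053496, plus), PPFIA1 (70116796-70231418, plus) and CTTN (70244510-70282690, plus) to SHANK2 (70313959-70963623, minus). CCND1 and ORAOV1 overlap by 1399 bases on opposite strands. The strand setting of the read counting was not stated in the sources used here. Counts that were not whole, which mark reads shared with another gene, occurred in 0 libraries for CCND1 and in 2 for ORAOV1. Whether reads of the overlap were counted for the right gene was not tested.

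Promoter windows of 300 bases, from 250 before to 50 after the start, were found for 5 of the 9 genes in a RefSeq table for GRCh38.p14. They are shown for FADD and for PPFIA1, the nearest gene past it, and for ANO1 and ORAOV1, because the 4 span members that were lower after ARV-771 and 1, ANO1, whose level overlapped that of DMSO. The fifth, FGF3, had almost no reads and is not shown. The windows are FADD chr11:70203046-70203345 (plus), PPFIA1 chr11:70270440-70270739 (plus), ANO1 chr11:69985657-69985956 (plus) and ORAOV1 chr11:69675304-69675603 (minus), all written 5′ to 3′ on the gene's strand. Capitals mark matches to 5 motifs searched on both strands. They were the TATA box (TATAAA), the GC box (GGGCGG), a loose form of the AP-1 motif (TGANTCA, where N is any base), the E-box (CACGTG) and the core of a SOX motif (ATTGT), and none of the marked matches overlap.
FADD: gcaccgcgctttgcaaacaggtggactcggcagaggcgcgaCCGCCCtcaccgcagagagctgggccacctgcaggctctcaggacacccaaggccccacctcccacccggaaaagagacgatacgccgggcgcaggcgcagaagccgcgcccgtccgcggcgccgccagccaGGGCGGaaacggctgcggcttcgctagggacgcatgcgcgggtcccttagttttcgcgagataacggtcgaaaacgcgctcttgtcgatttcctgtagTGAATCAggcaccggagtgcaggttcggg
PPFIA1: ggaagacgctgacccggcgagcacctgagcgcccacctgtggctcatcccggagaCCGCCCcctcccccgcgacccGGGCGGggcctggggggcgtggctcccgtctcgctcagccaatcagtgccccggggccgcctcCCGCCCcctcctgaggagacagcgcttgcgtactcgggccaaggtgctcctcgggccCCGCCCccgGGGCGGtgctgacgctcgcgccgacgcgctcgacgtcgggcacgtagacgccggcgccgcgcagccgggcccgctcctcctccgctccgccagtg
ANO1: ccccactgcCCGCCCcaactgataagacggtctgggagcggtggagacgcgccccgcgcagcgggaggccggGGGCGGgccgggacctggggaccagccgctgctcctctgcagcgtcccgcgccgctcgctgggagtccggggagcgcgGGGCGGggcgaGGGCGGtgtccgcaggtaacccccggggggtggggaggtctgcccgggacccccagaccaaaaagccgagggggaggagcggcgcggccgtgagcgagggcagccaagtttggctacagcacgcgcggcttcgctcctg
ORAOV1: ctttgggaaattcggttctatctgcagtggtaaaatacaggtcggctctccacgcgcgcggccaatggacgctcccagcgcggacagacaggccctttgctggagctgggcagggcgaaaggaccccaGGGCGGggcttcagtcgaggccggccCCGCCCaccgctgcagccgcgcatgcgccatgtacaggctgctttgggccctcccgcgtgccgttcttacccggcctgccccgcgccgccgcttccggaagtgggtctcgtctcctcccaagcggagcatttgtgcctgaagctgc
The GC box was found 2 times for FADD, 5 for PPFIA1, 4 for ANO1 and 2 for ORAOV1. Of the 35116 promoters in the table, 45.0% held this motif, so its presence was common. The FADD window alone among the 4 matched the loose AP-1 form, as TGAATCA beginning 21 bases after the start. That form, with any middle base, was held by 7.71% of all promoters, and binding of AP-1 at the FADD match was not tested. None of the 4 windows held the TATA box, the E-box or the SOX core (the FGF3 window held the SOX core 1 time), which 11.5%, 7.26% and 27.4% of all promoters held. GC content was 66.7% for FADD, 77.7% for PPFIA1, 76.0% for ANO1 and 67.0% for ORAOV1, against a median of 58.7% over the table.

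Total expected counts, the reads that the authors' software assigned to genes, ranged from 7260730 to 15781463 per library. Levels are given in TPM, which scales reads by transcript length and library depth, and fold changes come from counts. SOX2 itself followed the labels, at 365 to 379 TPM with CRISPRi control guides and 120 to 128 with e1 guides, 397 to 428 in knockout controls and 103 to 221 with SOX2 guides, 223 to 236 with DMSO and 9.80 to 10.5 with ARV-771, and 1.53 to 1.68 with CRISPRa control guides and 224 to 316 with e1 guides. The summed level of 6 squamous markers was 5571 to 26570 TPM in KYSE140 but 75.2 to 265.6 in SKMES1, where KRT5 was at most 1.26 TPM, DSG3 at most 0.10, TP63 at most 3.79 and KRT6A at most 19.2, while PKP1 was at 72.0 to 141. The 2 SKMES1 control libraries differed from each other, for example in KRT14 (0.31 and 118 TPM). Some of the results that rest on them, but not all, are also given with 1 of them left out. Of 3 leukocyte markers PTPRC and CD3E were at most 0.55 and 0.16 TPM in any library, while CD68, a lysosomal protein, was at 66.7 to 132 TPM in SKMES1 controls and 0.84 to 1.08 in KYSE140 CRISPRi controls, and 2 endothelial markers summed to at most 0.82.

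Among the 9 genes CTTN had the highest level per length and FGF3 the lowest. In the 13 KYSE140 libraries the median level was 788 TPM for CTTN, 250.5 for FADD, 205 for CCND1, 203 for PPFIA1, 66.7 for ANO1, 65.2 for ORAOV1, 11.1 for SHANK2 and 1.46 for FGF19. FADD and PPFIA1 lay close together in the controls, at 199 to 264 and 164 to 222 TPM. In the 4 SKMES1 libraries CCND1 led with a median of 233 TPM, followed by CTTN with 152, FADD with 73.4, PPFIA1 with 51.1, ANO1 with 27.0, ORAOV1 with 17.6 and SHANK2 with 2.04. FADD, PPFIA1, CTTN, ORAOV1, SHANK2 and FGF19 were lower in every SKMES1 library than in any KYSE140 library outside the ARV-771 group, and CCND1 was not.

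**Figure D1:**
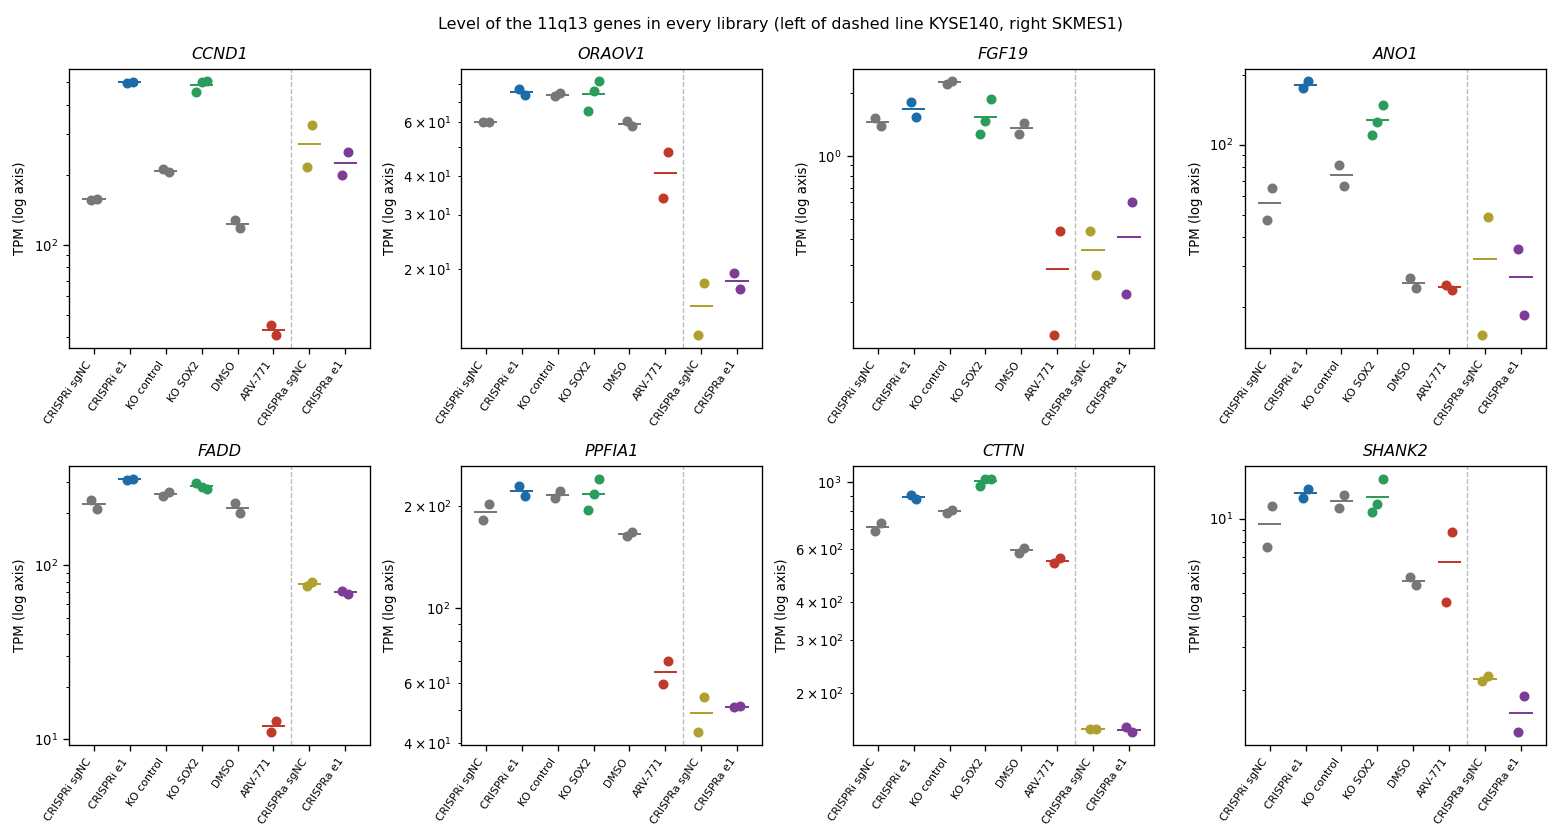
Level of 8 of the 9 genes in TPM (log axis) in each of the 17 libraries, 1 point a library and a bar at the group mean, with KYSE140 groups left of the dashed line and SKMES1 groups right of it. FADD sits at 199 to 315 TPM in all KYSE140 libraries except the ARV-771 ones, at 10.9 and 12.6, and CCND1 is highest with e1 or SOX2 guides. FGF3 is left out because it had no reads in 16 libraries.

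FADD, the death receptor adapter, moved little with the SOX2 perturbations and was far lower after ARV-771. With CRISPRi control guides it stood at 236 and 212 TPM, and with e1 guides at 312 and 315. Both e1 libraries were above both controls, and the log2 fold change on the count scale was 0.50 ± 0.06 (SE, n = 2 and 2, adjusted p = 5.17e-06, edgeR quasi-likelihood test). That is a change of 1.41-fold, under the limit for a call (adjusted p under 0.05 and over 1.5-fold), and without the sg-NC#1 library it was 0.59 and passed that limit. In the knockout controls FADD was at 250.5 and 264 TPM and with SOX2 guides at 299, 283 and 274. In bulk RNA such as this, fewer cells that express a gene and less of its RNA per cell cannot be told apart. The 3 knockout libraries lay above both controls, with a log2 fold change of 0.35 ± 0.08 (SE, adjusted p = 0.00297), again under 1.5-fold.

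After ARV-771 FADD stood at 10.9 and 12.6 TPM, against 227 and 199 with DMSO. Behind these values were 174 and 253 counts, against 3259 and 2830, so the low level was still measured well above the floor of 3 counts. The means differed 18.1-fold in TPM, and the log2 fold change on the count scale with TMM scaling (which sets library factors from most genes) was -3.44, or 10.9-fold. In SKMES1, FADD was at 76.1 and 80.6 TPM with control guides and at 70.8 and 68.7 with e1 guides. The groups did not overlap, but the log2 fold change of -0.22 ± 0.09 (SE) did not pass the test (adjusted p = 0.353, edgeR). An antisense transcript that overlaps 1100 bases of FADD, RP11-805J14.5, had at most 5 counts in any library.

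CCND1 rose with e1 repression and with SOX2 knockout and was lower after ARV-771. It stood at 156 and 158 TPM with CRISPRi control guides and at 495 and 501 with e1 guides, a gap many times wider than that between replicates. The log2 fold change was 1.68 ± 0.05 (SE, adjusted p = 3.57e-13, edgeR), and by p CCND1 ranked 21 among 13792 genes. In knockout controls the level was 210 and 205 TPM and with SOX2 guides 454, 498 and 502, with a log2 fold change of 1.44 ± 0.07 (SE, adjusted p = 7.36e-09). The difference between the log2 changes of e1 repression and SOX2 knockout was 0.27 (adjusted p = 0.0218, edgeR interaction contrast over 9 libraries), under the 1.5-fold limit, and its adjusted p lay above 0.05 in 4 of the 9 fits that each left out a library.

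The DMSO cultures had the lowest CCND1 of the KYSE140 controls, at 128 and 118 TPM, and the ARV-771 cultures had 45.2 and 41.0. The means differed 2.85-fold in TPM. On the count scale the log2 fold change was -0.81, between -0.73 and -1.89 under other settings. In SKMES1 the level was 216 and 327 TPM with control guides and 200 and 250 with e1 guides. These groups overlapped, and the log2 fold change was -0.26 ± 0.21 (SE, adjusted p = 0.634). It was 0.01 without the sg-NC#2 library. CCND1 was the member that was higher in SKMES1 than in KYSE140 controls, with a log2 fold change of 0.70 (adjusted p = 0.013), but the call was lost without either KYSE140 control library (adjusted p = 0.109 and 0.0876) and the change was 0.44 without the SKMES1 sg-NC#2 library.

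With e1 repression ANO1 had the largest log2 fold change among the 9 genes, but not by a firm margin over CCND1. With 1 library left out the value was 1.65 to 1.72 for CCND1 and 1.64 to 2.11 for ANO1. The ANO1 level was 47.7 and 64.8 TPM with control guides and 175 and 187 with e1 guides, a log2 fold change of 1.86 ± 0.10 (SE, adjusted p = 5.78e-10, edgeR). With SOX2 knockout it went from 82.1 and 66.7 TPM to 110, 125 and 148, a log2 fold change of 0.88 ± 0.09 (SE, adjusted p = 6.95e-06). The larger rise with e1 repression was tested as an interaction and differed by 1.00 ± 0.16 on the log2 scale (SE, adjusted p = 0.000413), between 0.79 and 1.26 under the 12 other settings. ANO1 was the 1 called of 8 tested members in this contrast, where 16.6% of 14455 genes were called, 8.21% with a positive and 8.37% with a negative difference. The positive share of those calls was 49.5% with TMM and 67.6% with library size, and ANO1 was called with both. The e1 and SOX2 effects were each measured against their own control libraries.

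After ARV-771 the ANO1 level of 25.0 and 23.6 TPM overlapped that of DMSO, 26.8 and 24.2, while its log2 fold change was 0.70 on counts with TMM scaling, -0.06 with limma on TPM and -0.38 when scaled to mitochondrially encoded genes. The 4 SKMES1 libraries spread from 15.2 to 49.1 TPM with both extremes among the control guides. The mean length of the ANO1 transcripts also varied there, from 2328 to 4165 bases. ANO1 was not called with e1 activation (log2 fold change -0.49 ± 0.39, SE, adjusted p = 0.62), and the value was 0.28 without the sg-NC#2 library and -0.98 (adjusted p = 0.00497) without sg-NC#1. In the e1 and knockout groups, marker genes also changed, some up and some down. The summed squamous markers were 6142 to 6159 TPM with CRISPRi control guides and 9501 to 9543 with e1 guides, and 7065 to 7078 in knockout controls and 22710 to 26570 with SOX2 guides. Of these 6 genes 2 rose and 2 fell with e1 repression, beside 9.3% and 10.7% of all genes. With SOX2 knockout 5 rose and 1 fell, beside 16.3% and 13.5% of all genes. TP63 fell in both (-0.62 and -1.22 on the log2 scale), and PKP1 fell with e1 repression (-0.59). The 4 fibroblast markers summed to 13.5 to 15.9 and 37.4 to 38.6 TPM in the former pair and to 9.81 to 15.2 and 39.3 to 43.9 in the latter, and CD68 rose by 4.84 and 4.14 on the log2 scale while PTPRC and CD3E stayed near 0. Of the 4 fibroblast markers 1, COL1A1, passed the count filter in these comparisons (1.29 and 2.17 on the log2 scale). The part of the marker genes in the changes of CCND1 and ANO1 was not tested.

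CTTN, the actin regulator cortactin, was the most abundant of the set in KYSE140 and differed little between perturbed and control libraries. Its level was 685 and 731 TPM with CRISPRi control guides and 902 and 878 with e1 guides (log2 fold change 0.31, adjusted p = 2.29e-05). It was 788 and 809 TPM in knockout controls and 972, 1024 and 1019 with SOX2 guides (log2 fold change 0.47, adjusted p = 2.89e-05). Neither pair of groups overlapped, and neither change reached 1.5-fold. After ARV-771 CTTN stood at 537 and 558 TPM against 582 and 606 with DMSO, 7.77% lower by mean TPM, whereas the log2 fold change was 0.66 on counts with TMM scaling, -0.12 with limma on TPM and -0.42 when scaled to mitochondrially encoded genes. The direction for CTTN therefore turned with the scaling. In SKMES1 all 4 libraries lay between 149 and 154 TPM.

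PPFIA1, which begins 67.4 kb past the start of FADD, was also lower after ARV-771, by less than FADD. It was at 182 and 203 TPM with CRISPRi control guides and at 230 and 215 with e1 guides (log2 fold change 0.21, adjusted p = 0.00276, under 1.5-fold). In knockout controls the level was 211 and 222 TPM and with SOX2 guides 195, 217 and 241, overlapping groups with a log2 fold change of 0.11 (adjusted p = 0.171) that was -0.09 with library size alone. After ARV-771 it stood at 59.6 and 69.9 TPM against 164 and 168, a 2.56-fold difference of means, with a log2 fold change of -0.66 on the count scale and -1.74 when scaled to mitochondrially encoded genes. PPFIA1 had counts that were not whole in 12 libraries, which marks reads shared with another gene.

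ORAOV1 and SHANK2 showed wide gaps in mean transcript length between groups, and other members had narrower ones, such as CTTN with 3034 and 3031 bases with DMSO and 3144 and 3153 with ARV-771. ORAOV1 was at 60.3 and 58.3 TPM with DMSO and at 34.0 and 47.8 with ARV-771, and on the count scale the log2 fold change was -0.49. The mean length of its transcripts, weighted by their abundance, was 1509 and 1525 bases with DMSO and 1088 and 976 with ARV-771. These 2 libraries had the shortest ORAOV1 transcripts of all 17, and the other KYSE140 libraries lay between 1509 and 1873 bases. With e1 guides ORAOV1 was at 77.2 and 73.8 TPM against 60.1 and 59.9 (log2 fold change 0.33, adjusted p = 0.006), under 1.5-fold. With SOX2 guides it was at 65.2, 75.7 and 81.4 TPM against 72.8 and 74.8, a log2 fold change of 0.07 (adjusted p = 0.546) whose sign turned under 4 other settings.

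SHANK2 had 107 and 162 counts with e1 guides against 221 and 254 with control guides. The log2 fold change on the count scale was -0.56 ± 0.15 (SE, adjusted p = 0.00722), just under 1.5-fold, and it passed that limit with library size alone (-0.60) and without sg-NC#1 (-0.63) or sg-e1#2 (-0.82). In TPM, which divides by transcript length, the same libraries went the other way, 12.1 and 13.2 against 7.70 and 11.3. The mean transcript length was 1575 and 1952 bases with e1 guides and 3827 and 2994 with control guides, so the direction of SHANK2 turned with the unit. With SOX2 guides the lengths were 2584, 2183 and 1744 bases against 2857 and 2604, and the log2 fold change of -0.13 on counts did not pass the test (adjusted p = 0.457). After ARV-771 SHANK2 was at 4.58 and 8.79 TPM and with DMSO at 5.79 and 5.37, overlapping levels, and the log2 fold change of 0.65 with TMM turned to -0.43 when scaled to mitochondrially encoded genes.

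**Figure D2:**
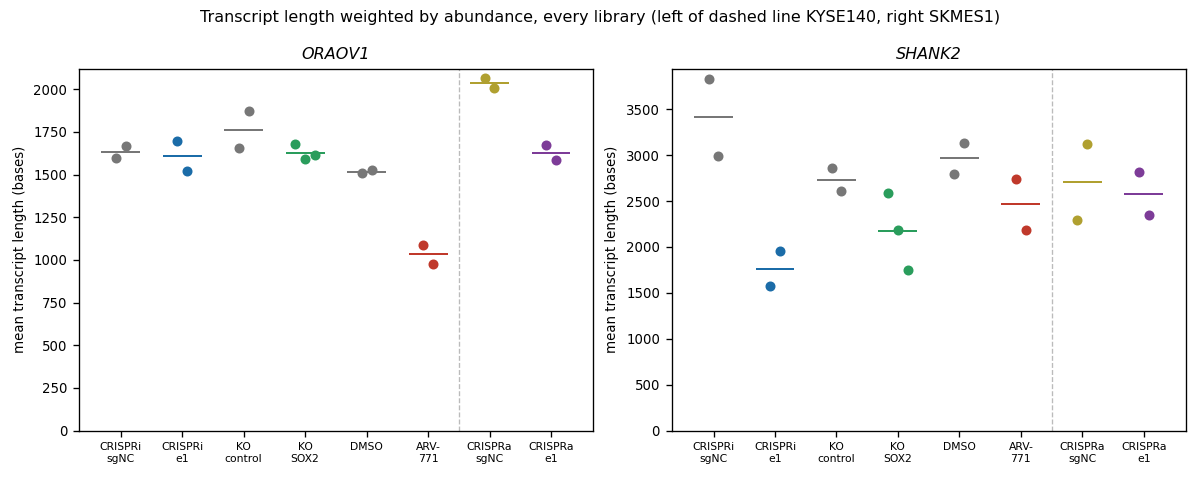
Mean transcript length in bases, weighted by the abundance of each isoform, of ORAOV1 (left) and SHANK2 (right) in each library, with bars at the group means. The ARV-771 libraries have the shortest ORAOV1 transcripts, 976 and 1088 bases, and the e1-repressed libraries the shortest mean for SHANK2, from 1575 and 1952 bases.

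FGF19 and FGF3, the secreted ligands of the segment, were nearly silent. FGF19 had 17 to 33 counts in the KYSE140 libraries outside ARV-771, 3 and 12 counts with ARV-771 and 3 to 14 in SKMES1, so its changes rest on few reads. Its level was 1.27 to 2.26 TPM in the former and 0.14 and 0.44 with ARV-771. It did not pass the test with e1 repression (log2 fold change 0.21, adjusted p = 0.678) or SOX2 knockout (-0.36, adjusted p = 0.37). FGF3 had 1 count in the sg-e1#1 CRISPRi library and 0 in the other 16, and 3 counts, the limit that a count of 0 allows, would stand at 0.19 to 0.413 CPM (counts scaled to library depth). FGF3 was not tested in any comparison.

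With e1 repression 2 of the 8 tested members, CCND1 and ANO1, were called, both risen, where 20% of 13792 genes were called, 9.3% as risen and 10.7% as fallen. With SOX2 knockout the same 2 members were the ones called among 8 tested, where 29.7% of 13978 genes were called, 16.3% as risen and 13.5% as fallen. With library size in place of TMM, the risen share of all knockout calls went from 54.7% to 36.2%, and CCND1 and ANO1 were still called as risen. The ARV-771 contrast chose the set, and with TMM 3 of its 8 measured members were higher and 5 lower, from which nothing is read. Over the 13500 genes tested 52.9% were called, 21.2% as risen and 31.7% as fallen. Of all calls in that comparison 40% were risen with TMM, 5.9% with library size and 1.89% with limma on log2(TPM + 1), and the median log2 fold change of the genes that averaged 50 counts or more lay at 0.01, -0.45 and -0.62. Scaled to mitochondrially encoded genes the median was -1.07 and the risen share 0.823%, and no member was then higher.

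**Figure D3:**
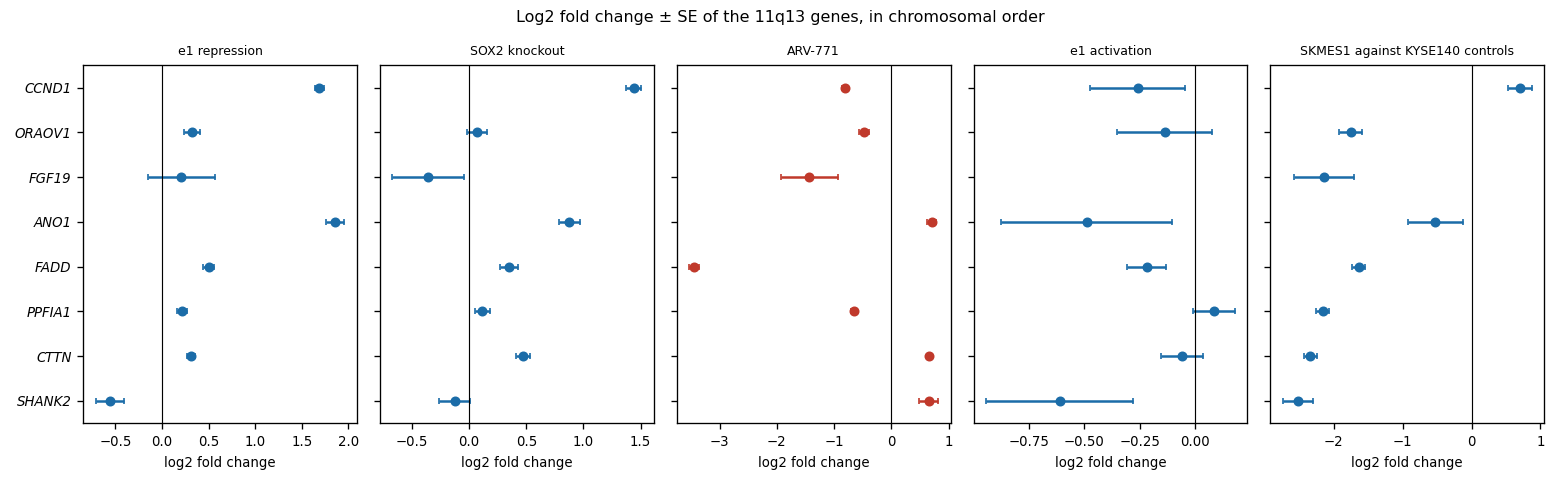
Log2 fold change (x axis, with SE) on the count scale of 8 genes in chromosomal order in 5 comparisons, each with its own x axis. CCND1 and ANO1 lie farthest right with e1 repression, 1.68 and 1.86, and FADD farthest left with ARV-771, -3.44. FGF19 was not tested with e1 activation.

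**Figure D4:**
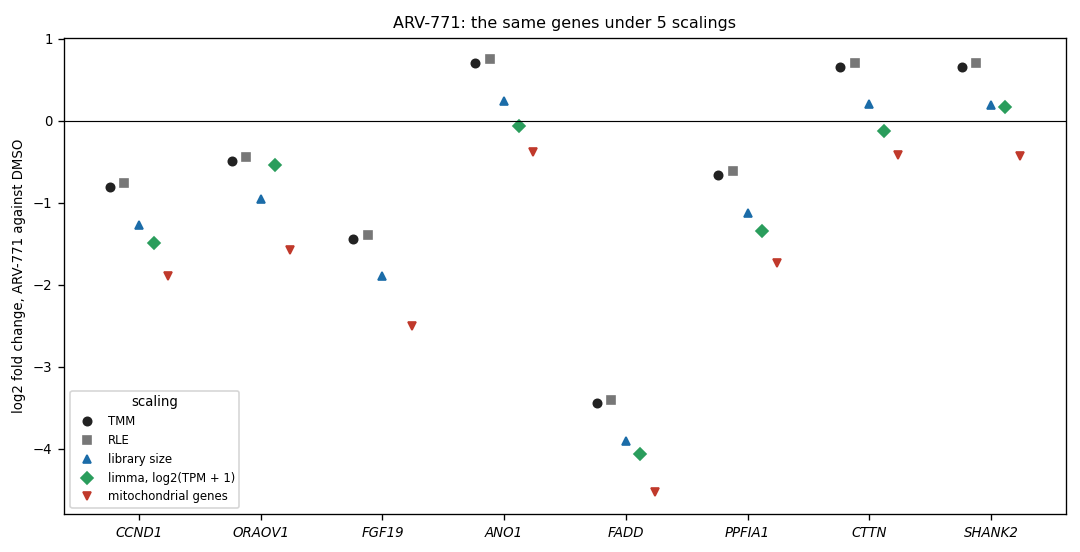
Log2 fold change of 8 genes after ARV-771 under 5 scalings of the libraries. FGF19 has no limma value, because genes with a mean TPM under 1 were left out of that fit. FADD stays lowest under each scaling, from -3.40 to -4.53, while CTTN and ANO1 lie above 0 with TMM and below 0 with limma on TPM or mitochondrial scaling.

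With e1 activation in SKMES1 none of 7 tested members was called by edgeR, where 0.188% of 14859 genes were called, 0.168% as risen and 0.0202% as fallen. The counts were 0 at an unadjusted p under 0.05 and 0 by DESeq2 and by limma on TPM, and ANO1 passed only in the fit without sg-NC#1 given above. By p FADD ranked 2130 among the 14859 genes, at an unadjusted p of 0.0507 (edgeR), so fewer than 2130 genes lay under 0.05. The SKMES1 control libraries differed from the KYSE140 CRISPRi controls in 7 of 8 tested members, where 55.6% of 15100 genes were called, 30.4% as higher and 25.2% as lower. CCND1 was the 1 member called as higher, and FADD (-1.64 on the log2 scale, adjusted p = 7.7e-05), CTTN (-2.34), PPFIA1 (-2.16), ORAOV1 (-1.75), SHANK2 (-2.51) and FGF19 (-2.14) were the 6 lower ones. FGF19 had 7 and 5 counts in the SKMES1 controls and 27 and 25 in the KYSE140 CRISPRi controls. It passed the count filter through the KYSE140 group alone, so nothing is read from its call. The FADD value stayed between -1.73 and -1.55 when any 1 of the 4 libraries was left out. ANO1 was not called (log2 fold change -0.52, adjusted p = 0.283). The line and the Cas9 construct differ together in this comparison and cannot be told apart.

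Neighbours on either side of the 9 genes gave a picture of the band beyond them. Of 14 neighbours from LRP5 to NADSYN1, 11 were tested with e1 repression, and 2 rose and 1 fell, beside 9.3% and 10.7% of all genes. MYEOV, a gene overexpressed in myeloma whose lower end lies at -987.8 kb from the start of FADD, rose by 4.22 ± 0.31 on the log2 scale (SE, adjusted p = 2.66e-08). It had 8 and 9 counts with control guides and 113 and 154 with e1 guides. The size of its rise thus rests on few control reads, and it passed the count filter through the e1 group alone. GAL, the precursor of the neuropeptide galanin, rose by 0.75 and LRP5, a Wnt co-receptor, fell by 0.80. With SOX2 knockout 1 of 11 rose and 3 fell, beside 16.3% and 13.5% of all genes. MYEOV rose there too, by 4.00 ± 0.19 (SE, adjusted p = 1.03e-08), from 13 and 32 counts in the knockout controls. LRP5 (-1.21), DHCR7 (-0.75) and CPT1A (-0.67, named after its value was seen to complete the count) fell, while GAL did not pass the test (-0.17, adjusted p = 0.0902). With ARV-771, 10 neighbours were tested, and with TMM 2 rose and 1 fell, beside 21.2% and 31.7% of all genes. IGHMBP2, a helicase, fell by 2.08 (adjusted p = 1.38e-14). GAL (0.98) and MRPL21 (0.83) were called as risen with TMM but lay at -0.10 and -0.25 when scaled to mitochondrially encoded genes. In the SKMES1 comparison 2 of 11 neighbours rose and 8 fell, beside 30.4% and 25.2% of all genes, where MYEOV rose by 5.93 and GAL fell by 7.36 on the log2 scale. The lower side of each rests on few reads, 8 and 9 counts of MYEOV in KYSE140 CRISPRi controls and 2 and 10 of GAL in SKMES1 controls.

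**Figure D5:**
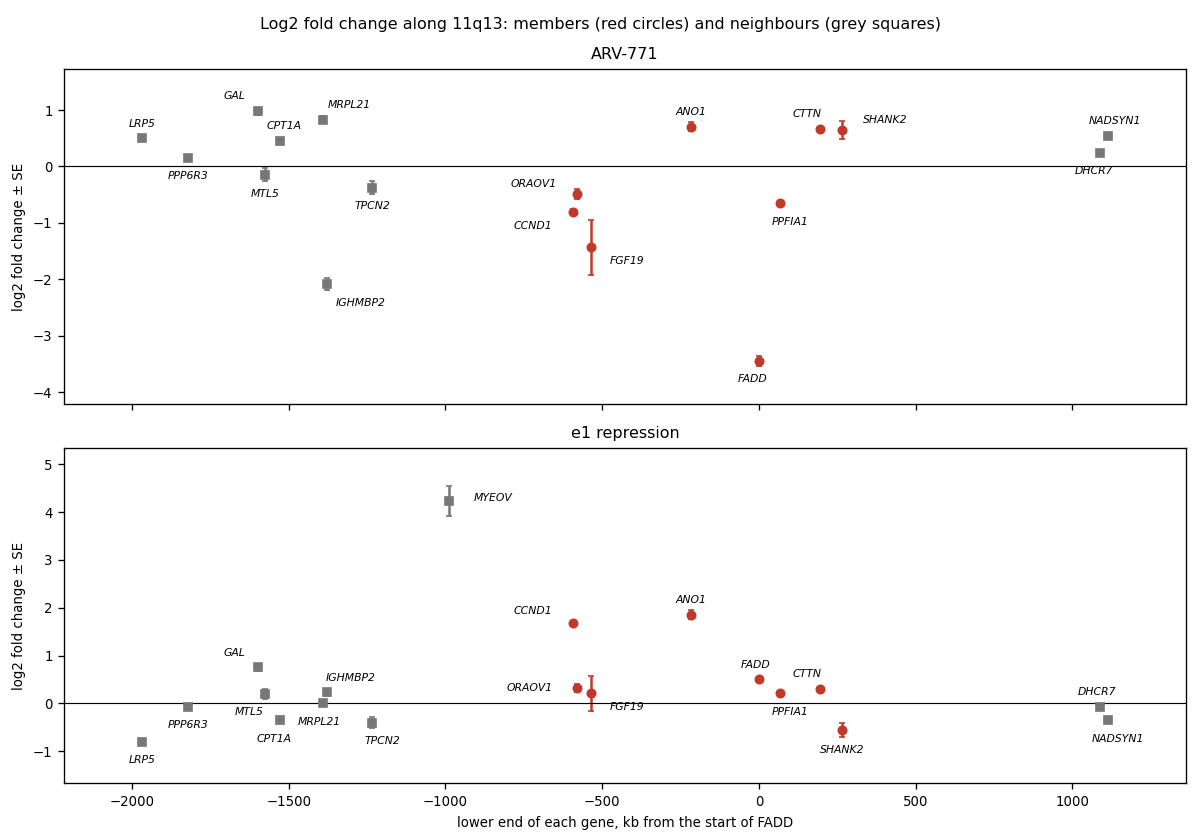
Log2 fold change with SE on the count scale (y axis) after ARV-771 (top) and with e1 repression (bottom) against the distance of each gene's lower end from the start of FADD in kb, for 8 members (red circles) and their tested neighbours (grey squares). FADD, at -3.44, lies between ANO1 and PPFIA1, at 0.70 and -0.66 with TMM scaling (ANO1 turned to -0.38 with mitochondrial scaling), and MYEOV is highest with e1 repression. MYEOV had 8 and 9 counts in the CRISPRi controls.

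Partners of FADD in the death receptor complex included receptors, ligands, caspases and regulators, 13 genes in all. With ARV-771, 11 were tested, and 8 fell and 0 rose, with a median of -0.79 against -0.04 over all genes tested, and 6 to 10 fell under the other settings. Over all genes 31.7% fell and 21.2% rose after ARV-771. TNFRSF1A, the main TNF receptor, fell by 2.49 ± 0.11 (SE, adjusted p = 1.23e-15) and TRAF2, a ubiquitin ligase of that receptor, by 2.51 ± 0.17 (SE, adjusted p = 1.91e-12), against a log2 fold change of -3.44 for FADD. With e1 repression 3 of 11 rose and 1 fell, beside 9.3% and 10.7% of all genes. TNFRSF10B, a TRAIL receptor, rose by 1.63, TNFRSF1A rose by 0.85, and CASP10 was called as fallen (-1.14, adjusted p = 0.00294, not called with limma on TPM). With SOX2 knockout 5 of 11 rose and 0 fell, beside 16.3% and 13.5% of all genes, among them TNFSF10, the ligand TRAIL, by 2.28 and TNFRSF10B by 1.07. In SKMES1 9 of 12 rose and 1 fell, beside 30.4% and 25.2% of all genes, with TNFRSF10B 2.83 and CFLAR, an inhibitor of caspase 8, 2.06 higher, while FADD was lower.

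Partners of cyclin D1 numbered 15, of which 13 were tested in KYSE140. CDKN1A, the inhibitor p21, rose with e1 repression (1.43 ± 0.06, SE, adjusted p = 5.2e-11) and with SOX2 knockout (2.56 ± 0.12, SE, adjusted p = 6.78e-09), in both beside the rise of CCND1. With e1 repression 1 of the 13 rose and 3 fell, beside 9.3% and 10.7% of all genes. Those that fell included RBL2, a relative of the retinoblastoma protein (-0.72), and CDKN2C, a CDK4 and CDK6 inhibitor (-0.92). With SOX2 knockout 1 rose and 3 fell, beside 16.3% and 13.5% of all genes. Those that fell there included E2F1, which drives S-phase genes (-1.01), and CDK4, the kinase partner of cyclin D1 (-0.67). With ARV-771 2 rose and 5 fell, beside 21.2% and 31.7% of all genes, and E2F3 (-2.37) and CDK6 (-1.21) had the smallest p among those that fell. CDK4 (0.91) and RB1 (0.69) were called as risen with TMM but lay at -0.18 and -0.38 when scaled to mitochondrially encoded genes.

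The list of receptors and adapters for the fibroblast growth factors held 7 genes. Of 5 tested, 3 fell and 0 rose with e1 repression and also with SOX2 knockout, where 10.7% and 13.5% of all genes fell. FGFR2 fell by 2.49 ± 0.07 (SE, adjusted p = 2.85e-13) and 1.75 ± 0.12 (SE, adjusted p = 1.8e-07), FGFR1 fell by 1.49 with e1 repression, and FGFR4 fell by 1.22 with SOX2 knockout. The third gene of each count was FGFR3 with e1 repression (-1.05) and FGFR1 with SOX2 knockout (-0.68). Both were named after their values were seen to complete the counts.

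Partners of CTTN and PPFIA1 and the other anoctamins made up the remaining lists. Of 14 genes of cortactin and actin branching, SH3PXD2A, a scaffold of invadopodia, rose with e1 repression (0.72) and with SOX2 knockout (0.84), and 1 and 4 of 14 were called in these comparisons, beside 20% and 29.7% of all genes. With ARV-771 WIPF2 (-1.91) and WASL (-1.59), which activate actin branching, fell, while ARPC2 (0.92) and ARPC3 (0.93) of the Arp2/3 complex were called as risen with TMM and lay at -0.16 and -0.15 with mitochondrial scaling. Of the liprin partners 10 were tested, and PPFIBP2, a liprin-beta, fell by 2.12 with e1 repression and by 1.30 with SOX2 knockout. With ARV-771 7 of them fell, KANK1 by 2.86, and 2 were called as risen with TMM and 0 with library size or mitochondrial scaling, where 31.7% of all genes fell and 21.2% rose with TMM. Of the other anoctamins 4 were tested in KYSE140, and ANO10 was called as risen with SOX2 knockout (0.82, not called with limma on TPM) and ANO8 as fallen with e1 repression (-0.59, also not called with limma on TPM). The ANO8 value lay between -0.64 and -0.54 over all settings, on both sides of the 1.5-fold limit. ANO6, named after its values were seen, had log2 fold changes of 0.55 with e1 repression (adjusted p = 1.85e-06) and 0.57 with SOX2 knockout (adjusted p = 3.79e-05), under the 1.5-fold limit. No gene of these 7 lists was called with e1 activation, where 0.188% of all genes were called. Those with an unadjusted p under 0.05 (edgeR) ran from 0 of 8 anoctamins to 6 of 11 liprin partners. Over all 14859 genes tested there, fewer than 2130 lay under 0.05, and nothing is read from these counts.

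Across the 8 group means of log2(TPM + 1), the 5 genes whose pattern was most like that of FADD among 13180 genes were DNAJA2 (Pearson's r = 0.997), CITED4 (0.997), SRP19 (0.996), GEMIN7 (0.996) and CCNL1 (0.996). The ARV-771 mean that chose FADD is among the 8, so likeness to FADD includes a low level there, as in GEMIN7 (7.07 TPM, against 57.7 with DMSO). Of the other members compared PPFIA1 was nearest to FADD (r = 0.802), but only at rank 2096 among these genes, and CCND1 stood at 0.739, at rank 2873. For CCND1 the nearest 5 were RBMS2 (0.990), GADD45B (0.987), STOML1 (0.987), TSC22D1 (0.987) and CYR61 (0.984). TSC22D1 was at 44.5 TPM with CRISPRi control guides and 213 with e1 guides, and GADD45B at 21.5 and 66.1. These correlations describe 8 group means, 6 from one cell line and 2 from the other.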

How the data were processed

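RNA sequencing (poly-A RNA, directional library kit) was measured in 17 libraries. The authors used Bowtie2 for alignment to hg19 and RSEM for quantification over GENCODE (versions, GENCODE release and strand setting not given in the sources used here). The expected counts, which the authors' RSEM run estimates by dividing shared reads among genes, were deposited per gene, of which 7.41 to 10.02% were not whole per library, and were rounded here. TPM values deposited by the authors are scaled for transcript length and depth and were used for levels. The FPKM values deposited by the authors were not used. Lengths deposited per gene are means over transcripts weighted by abundance.

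Genes with low counts were left out (filterByExpr, minimum count 10 and total 15). edgeR 4.0.16 (R 4.3.3) fitted its quasi-likelihood test with TMM scaling to the groups of each comparison, and calls needed a Benjamini-Hochberg adjusted p under 0.05 over all genes tested and a fold change over 1.5. An interaction contrast over 9 libraries compared e1 repression with SOX2 knockout. Standard errors came from the F statistic. Every adjusted p is from edgeR, two-sided. A filter can keep a gene through 1 group alone. The scripts were checked on simulated counts. Total counts of 7260730 to 15781463 set a floor of 3 counts at 0.19 to 0.413 CPM, which covers counting error only.

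Alternatives were RLE factors, library size, DESeq2 1.42.0, limma 3.58.1 on log2(TPM + 1) and log2(TPM + 0.1), no filter, a mean of 50 counts, other fold limits, 1 fit of all 17 libraries, each library left out, a replicate block, all 6 KYSE140 control libraries, and, for ARV-771, scaling to mitochondrially encoded genes. The members and lists were chosen with earlier results of these data known. Named were all 9 members, in each list and comparison up to 2 risen and 2 fallen calls of smallest p, and the 5 genes most like FADD and CCND1. RBL1, with 2 rows, and PECAM1, with none under that symbol, were left out of their lists. Of 57820 gene IDs, 55538 (96.1%) matched GENCODE 44 on GRCh37, which gave the coordinates. No replicate pair of libraries differed by less than counting noise.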

Additional observations from a re-analysis of the deposited data

Results flagged for a closer look

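ANO1 had unequal rises in the 2 perturbations of SOX2 expression. Its log2 fold change was 1.86 with e1 repression and 0.88 with SOX2 knockout, and the difference of 1.00 ± 0.16 (SE, adjusted p = 0.000413, edgeR interaction contrast) passed the test. Both e1 libraries and all 3 knockout libraries lay above their controls. SOX2 stood at 120 to 128 TPM with e1 guides and 103 to 221 with SOX2 guides, and its part in the difference was not tested. No other member was called in this contrast. Groups of 4 to 10 libraries, in which a single library far from the others could be sought, did not occur.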

How the results depend on the processing

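Of 603 values of single members under other settings, 532 kept their direction and side of the threshold (or, after ARV-771, moved less than 1 SD), 5 lost and 8 gained a call, 22 turned sign and 36 after ARV-771 moved by more. FADD after ARV-771 stayed between -4.53 and -3.34, CCND1 between 1.64 and 1.72 with e1 repression and 1.22 and 1.47 with SOX2 knockout. For values that turned sign the cause was not tested. With limma (pseudocounts 1 and 0.1) SHANK2 was 0.40 and 0.44 with e1 repression and 0.04 with SOX2 knockout, ORAOV1 -0.00 with SOX2 knockout and 0.28 and 0.30 with e1 activation, CTTN -0.12 and ANO1 -0.06 and -0.07 after ARV-771, and, at pseudocount 1, SHANK2 0.36 in the interaction. With library size PPFIA1 was -0.09 and ORAOV1 -0.13 with SOX2 knockout. With mitochondrial scaling CTTN was -0.42, ANO1 -0.38 and SHANK2 -0.43 after ARV-771. Leaving out 1 library gave ORAOV1 -0.04 to 0.17 with SOX2 knockout (lowest without AAVS1), and with e1 activation CCND1 -0.49 to 0.01, ANO1 -0.98 to 0.28 and ORAOV1 -0.36 to 0.12 (SKMES1 sg-NC#1 or sg-NC#2 left out). FGF19 lost its call against SKMES1 without either KYSE140 control (adjusted p = 0.0787 and 0.0609, edgeR), ANO1 gained one there without SKMES1 sg-NC#2 (-1.28), and SHANK2 gained one in the interaction without sg-e1#2 (-0.68).

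Over all genes, a fold limit of 2 or none gave 1526 and 6103 calls with e1 repression and 2339 and 7123 with SOX2 knockout, and a limit of 2 gave 3809 with ARV-771. With e1 activation 28 genes were called, against 400 by DESeq2, 1116 without a filter, 784 in the fit of all 17 libraries and 9 and 8 by limma. Without 1 library the counts were 2422 to 2881 with e1 repression, 3589 to 4261 with SOX2 knockout, 6849 to 6914 with ARV-771, 1 (without sg-e1#3) to 764 (without sg-NC#1) with e1 activation, 262 without sg-NC#2, 7102 to 8816 between the lines and 2012 to 2758 in the interaction. With 1 library left in a group, its spread was assumed to be that of the others.

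With the replicate block, edgeR called 2807 genes with e1 repression, 7090 with ARV-771 and 8230 between the lines. Deviations of same-numbered libraries correlated at 0.02, 0 and 0.04, so the numbers did not pair them, and among members the block added 1 call, ANO1 between the lines (-0.63, adjusted p = 0.0335). No paired analysis was possible because the groups share fewer than 2 numbers for SOX2 knockout, e1 activation and the interaction. Depth limits FGF19 and FGF3, and 2 or 3 libraries a group limit the rest.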
